A study of Mus musculus with 32 samples.

Results

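Hadha, Hadhb, Hadh, Echs1 and Acaa2 encode the enzymes of the later steps of mitochondrial fatty acid β-oxidation. They were chosen by symbol, as the rows of the count table whose Ensembl identifiers carry these 5 names, and each name matched a single row, so the genes are 5 of 54418 identifiers. All 5 passed the filter on low counts that left 5872 genes for testing. The RNA came from intestinal stem cells of C57BL6 mice, sorted by high GFP, an epithelial antibody (CD326) and the dye DAPI, and polyadenylated RNA was counted by a 3' digital gene expression method. The 4 genotypes are named here as in the sample titles. WT mice are Wildtype, PparD mice Ppard-fl/fl and PparA mice Ppara-null, and PparDA mice carry both of these alleles. Each was fed a control or a high-fat diet, giving 8 groups of 4 libraries. The design text calls the mutants knockouts, but the sources used here give no Cre driver, promoter of the GFP reporter, age or diet length, and leave it unsaid whether replicate libraries are separate animals, so p-values measure the spread between these libraries.

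In each turn of β-oxidation an acyl-CoA is dehydrogenated, hydrated, dehydrogenated again and cleaved by a thiolase, which releases acetyl-CoA and leaves a shorter acyl chain. For long chains the last steps are carried out by the mitochondrial trifunctional protein of the inner membrane, whose α subunit (Hadha) is the hydratase and 3-hydroxyacyl-CoA dehydrogenase and whose β subunit (Hadhb) is the thiolase. For shorter chains separate matrix enzymes take over: Echs1, the short-chain enoyl-CoA hydratase, Hadh, the medium- and short-chain 3-hydroxyacyl-CoA dehydrogenase, and Acaa2, a 3-ketoacyl-CoA thiolase. Ppara and Ppard are nuclear receptors that fatty acids activate, and many β-oxidation genes are among their known targets. The study asked whether they are needed for the response of stem cells to a high-fat diet.

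The subunit genes of the trifunctional protein lie head to head on chromosome 5 (GRCm38, the assembly also called mm10). Hadha (ENSMUSG00000025745.12) spans 30118304 to 30155162 on the minus strand with 20 exons in its longest coding transcript, and Hadhb (ENSMUSG00000059447.13) spans 30155248 to 30184593 on the plus strand with 16 exons. Only 85 bp separate the gene models. Hadh (ENSMUSG00000027984.8) lies on chromosome 3 from 131233419 to 131272101 on the minus strand, Echs1 (ENSMUSG00000025465.13) on chromosome 7 from 140105710 to 140116476 on the minus strand, and Acaa2 (ENSMUSG00000036880.10) on chromosome 18 from 74779197 to 74806208 on the plus strand. Echs1 overlaps the antisense gene Paox at its 5' end, which had 176 counts summed over the 32 libraries.

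RefSeq promoter windows of 300 bases (GRCm38.p6, 250 before to 50 after the start site) were given for 4 of the 5 genes. The RefSeq start sites of Hadha and Hadhb are 273 bp apart, so that their windows share 228 bases and any regulatory letters there belong to both genes. The Hadhb window (chr5:30155003-30155302, plus strand) is shown because it holds all of this shared stretch, as the Hadha window does, and the Echs1 window (chr7:140116372-140116671, minus strand) because it holds the only nuclear receptor half-site among the 4 windows. Capitals mark GC boxes (GGGCGG on either strand) and this half-site, AGGTCA.

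Hadhb: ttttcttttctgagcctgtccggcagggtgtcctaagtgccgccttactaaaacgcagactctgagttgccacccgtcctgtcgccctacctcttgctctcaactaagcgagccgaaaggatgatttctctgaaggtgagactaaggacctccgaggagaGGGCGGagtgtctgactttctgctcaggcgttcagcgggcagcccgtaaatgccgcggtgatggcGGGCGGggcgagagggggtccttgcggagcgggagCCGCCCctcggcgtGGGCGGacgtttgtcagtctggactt

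Echs1: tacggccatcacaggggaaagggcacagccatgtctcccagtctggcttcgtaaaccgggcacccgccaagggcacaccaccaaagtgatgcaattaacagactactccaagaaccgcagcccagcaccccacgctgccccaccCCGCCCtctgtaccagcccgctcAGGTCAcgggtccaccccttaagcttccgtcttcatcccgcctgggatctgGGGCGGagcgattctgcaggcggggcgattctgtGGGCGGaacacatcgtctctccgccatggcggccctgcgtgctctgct

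The Hadhb window holds 4 GC boxes and the Echs1 window 3, against 4 in Hadh and 1 in Hadha. A GC box was present in 35.7% of 32851 mouse promoter windows of the same length. The only half-site among the 4 windows is that of Echs1, 83 bases before its start site, and 16.3% of all windows hold this motif. The direct repeat to which PPARs bind with their partner RXR (AGGTCANAGGTCA, searched on both strands) was in none of the 4 windows and in 0.0396% of all windows. The windows were rich in G and C, with 58.7 to 63.7% against a median of 52.7% over all windows. A match describes letters only, and sites elsewhere in these genes were not searched.

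The libraries were of even depth, with totals of 612672 to 724155 counts and 11683 to 12212 genes with a count. Library numbers 1 to 32 fall into 4 runs of 8 consecutive numbers that each hold every group once. A run here is such a stretch of numbers, and the labels name no sequencing run or batch. Xist, expressed from the inactive X chromosome, stood at 466 to 931 CPM (counts per 1000000, TMM-scaled) in runs 1 and 3 and at no more than 9.72 CPM in runs 2 and 4, where the Y-linked Ddx3y was present, so runs differ in the sex of the cells and not in group. Ppara and Ppard, at no more than 7.09 and 11.3 CPM, were too scarce for a check of the genotypes. The epithelial markers Epcam, Cdh1 and Krt8 were present in all 32 libraries, whereas the stromal genes Col3a1 and Dcn were at 0 in all of them.

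The 5 genes were among the well covered genes of these cells, and they fell into a variable and a steady set, named so after their values were seen. Acaa2 ranged from 191 to 557 CPM over the 32 libraries (126 to 368 counts), Hadhb from 133 to 381 CPM (93 to 255 counts) and Hadha from 77.2 to 201 CPM (50 to 138 counts). The highest group mean was 2.24 times the lowest for Acaa2, 1.98 times for Hadha and 1.75 times for Hadhb, with PparD on the high-fat diet highest in each. Hadh and Echs1 varied less, with highest group means 1.34 and 1.17 times their lowest. When the 8 groups were put in order of their mean, every neighbouring pair of groups overlapped in range for each of the 5 genes, so the order holds only between groups farther apart.

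**Figure D1:**
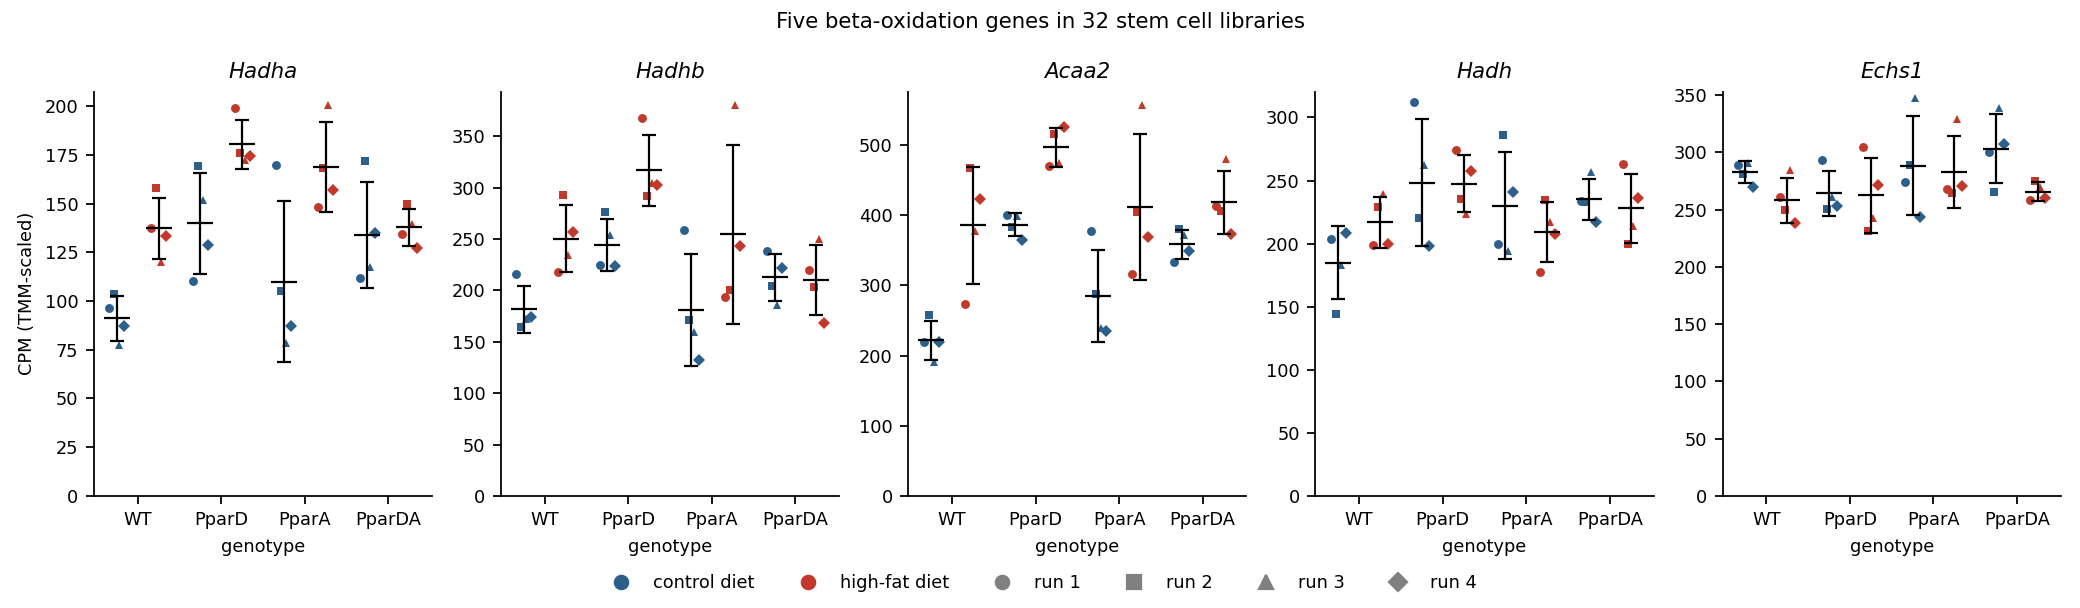
TMM-scaled CPM of the 5 genes in each of the 32 libraries, by genotype on the horizontal axis and diet by colour. Marker shapes give the run of library numbers, and bars give the mean and SD of 4 libraries. Acaa2, Hadha and Hadhb are lowest in WT on the control diet or, for Hadhb, equally low in PparA on the control diet, and highest in PparD on the high-fat diet, while Echs1 stays between 231 and 347 CPM.

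The α subunit gene Hadha was higher on the high-fat diet in WT, PparD and PparA cells, and close to its control level in PparDA cells. In WT it stood at 96.4, 103.5, 77.2 and 87.1 CPM in control libraries 1, 9, 17 and 26, and at 137.6, 158.1, 120.2 and 133.3 CPM in high-fat libraries 2, 10, 18 and 25. All 4 high-fat libraries lay above all 4 control libraries, a separation in this direction that 2.21% of the 5872 tested genes showed. The log2 fold change was 0.59 ± 0.18 (SE) and did not pass the threshold of an adjusted p under 0.05 (edgeR's quasi-likelihood test with Benjamini-Hochberg adjustment, adjusted p = 0.40). The difference had the same sign in each run, with log2 ratios of 0.51 to 0.64.

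In PparD cells Hadha stood at 110.3, 169.3, 151.9 and 128.5 CPM on the control diet and at 199.2, 175.8, 172.3 and 174.4 CPM on the high-fat diet. The ranges were again apart, as for 1.65% of tested genes, with a log2 fold change of 0.37 ± 0.17 (edgeR adjusted p = 0.96). In PparA cells the control libraries 5, 13, 21 and 29 were at 169.6, 105.0, 78.2 and 87.0 CPM and the high-fat libraries 6, 14, 22 and 30 at 148.4, 168.5, 200.8 and 157.1 CPM. Library 5 alone made the groups overlap, and with it the log2 fold change was 0.62 ± 0.18 (adjusted p = 0.30), against 0.91 (adjusted p = 0.0028) without it. In PparDA cells the values were 111.6, 171.7, 117.6 and 134.9 CPM without and 134.6, 150.0, 139.5 and 127.1 CPM with the high-fat diet, and the groups lay within each other (0.04 ± 0.18, adjusted p = 0.98).

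Hadhb, the β subunit gene, followed a like course. In WT the control libraries held 215.7, 164.8, 172.6 and 174.3 CPM and the high-fat libraries 217.9, 292.6, 234.8 and 256.7 CPM. These ranges were apart by a narrow margin, since library 1 on the control diet and library 2 on the high-fat diet differed by a log2 ratio of 0.01, and the fitted change was 0.46 ± 0.18 (edgeR adjusted p = 0.56). In PparD they were also apart, at 224.9, 276.4, 253.6 and 223.5 CPM against 368.1, 292.0, 305.0 and 303.0 CPM (0.37 ± 0.18, adjusted p = 0.98).

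In PparA cells Hadhb spread widely on both diets. It stood at 258.9, 171.5, 159.5 and 132.7 CPM on the control diet and at 193.4, 200.9, 380.7 and 243.0 CPM on the high-fat diet, so the groups overlapped and the change of 0.49 ± 0.18 was not called (edgeR adjusted p = 0.70). In PparDA cells Hadhb was at 238.3, 203.9, 186.3 and 222.2 CPM without and 219.6, 203.1, 249.6 and 168.4 CPM with the high-fat diet, a change of −0.02 ± 0.18 (adjusted p = 0.99). The log2 ratio of Hadha to Hadhb within a library, which is read here only as a change between groups, had group means from −1.0 ± 0.23 (SD, n = 4) in WT on the control diet to −0.55 ± 0.29 in PparA on the high-fat diet, and its range in each of these groups overlapped the other.

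Acaa2, the matrix thiolase gene, was the member that rose with the diet in WT by the test across all genes. It stood at 219.7, 258.1, 190.8 and 218.6 CPM in the control libraries and at 273.7, 467.0, 377.6 and 422.7 CPM in the high-fat libraries, with no overlap. The means were 222 ± 27.7 and 385 ± 82.8 CPM (SD, n = 4), a log2 fold change of 0.80 ± 0.16 (edgeR adjusted p = 0.035). Acaa2 was the only one of the 5 genes called, where 0.102% of all tested genes were. Leaving out library 1, 10, 17, 18 or 25 ended the call (adjusted p = 0.064 to 0.24), and the change was 0.65 within runs 1 and 3 (adjusted p = 0.51) and 0.91 within runs 2 and 4 (0.055).

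The diet differences of Acaa2 in the mutants had smaller fitted values than in WT and were not called in any of them. In PparD it stood at 400.5, 383.4, 398.1 and 364.5 CPM without and 470.6, 515.6, 474.5 and 525.9 CPM with the high-fat diet, apart in range (0.36 ± 0.15, edgeR adjusted p = 0.93). In PparA it stood at 377.0, 287.3, 239.2 and 235.4 CPM against 315.6, 405.0, 557.5 and 369.3 CPM, overlapping through libraries 5 and 6 (0.53 ± 0.16, adjusted p = 0.35). In PparDA it stood at 333.4, 380.0, 371.0 and 348.9 CPM against 413.5, 406.3, 480.5 and 373.6 CPM, with the lowest high-fat library under the highest control library (0.22 ± 0.15, adjusted p = 0.74). It was higher on the high-fat diet in 4 of 4 runs there, with log2 ratios of 0.10 to 0.37. None of the 5 genes was called for the diet in PparD, PparA or PparDA, where 0.0851, 0.136 and 0.0341% of tested genes were.

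Echs1, the short-chain hydratase, and Hadh, the short-chain dehydrogenase, did not pass the test for the diet in any genotype. Echs1 in WT was at 289.3, 281.4, 290.7 and 270.0 CPM without and 260.9, 249.8, 284.3 and 238.3 CPM with the high-fat diet, with a log2 fold change of −0.13 ± 0.11 (edgeR adjusted p = 0.84). It was lower on the high-fat diet in each of the 4 runs, with log2 ratios of −0.18 to −0.03. Its changes in PparD, PparA and PparDA were −0.01, −0.03 and −0.19, each with an SE of 0.11. Hadh in WT was at 203.6, 144.4, 183.2 and 208.6 CPM against 199.2, 229.1, 239.0 and 200.0 CPM (0.23 ± 0.14, adjusted p = 0.76), and in the mutants its changes ran from −0.14 in PparA to −0.00 in PparD, with an SE of 0.14. The control and high-fat libraries of both genes overlapped in all 4 genotypes.

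**Figure D2:**
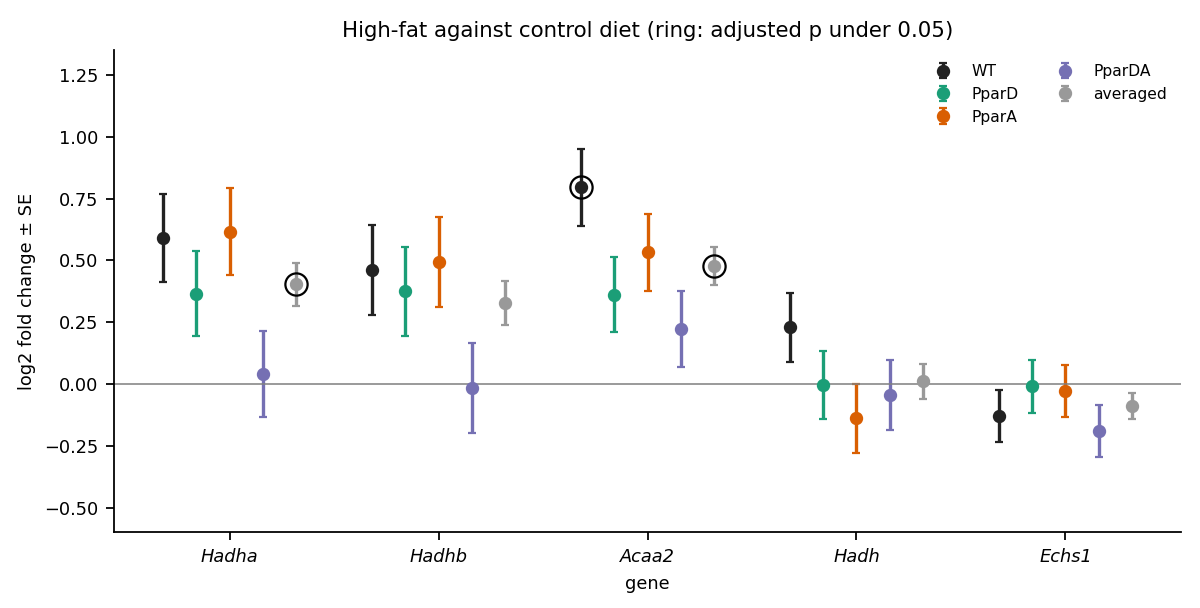
Log2 fold change of each gene between the high-fat and the control diet, in each genotype and averaged over the 4 genotypes (grey); bars give the SE of the fit and rings mark an adjusted p under 0.05. Hadha, Hadhb and Acaa2 lie above 0 in WT, PparD and PparA and nearer 0 in PparDA, and Hadh and Echs1 lie near 0 in most groups.

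Averaged over the 4 genotypes, Acaa2 and Hadha rose on the high-fat diet. The averaged log2 fold change was 0.48 ± 0.08 for Acaa2 (edgeR adjusted p = 0.0016) and 0.40 ± 0.09 for Hadha (adjusted p = 0.028), 2 of the 5 genes, where 0.324% of tested genes were called. Hadhb, at 0.33 ± 0.09, did not pass (adjusted p = 0.14), though it did in 2 of 11 other fits, with DESeq2 (adjusted p = 0.046) and with no filter on low counts (0.0069). Hadh (0.01 ± 0.07) and Echs1 (−0.09 ± 0.05) did not pass. Acaa2 kept its call without any single library, whereas Hadha lost it without library 22 (adjusted p = 0.05), a high-fat PparA library, and Hadhb gained one without library 5 (0.025). Within runs 1 and 3 the changes of Acaa2 and Hadha were 0.44 and 0.45 and neither was called (adjusted p = 0.29 and 0.34); within runs 2 and 4 they were 0.51 and 0.37, and Acaa2 was called (0.015 and 0.37).

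The split between the variable and the steady genes was tested by comparing their averaged diet effects within libraries. Of the 10 pairs, 6 differed after adjustment over the 10, and these were each of Hadha, Hadhb and Acaa2 against each of Hadh and Echs1 (permutation test, 100000 resamples of the diet labels within genotype, two-sided). Echs1 minus Acaa2 was −0.56 ± 0.09 on the log2 scale (permutation test, adjusted p = 0.0001; the unadjusted p of 1e-05 is the smallest these resamples give). Hadha minus Echs1 was 0.51 ± 0.11 (permutation test, adjusted p = 0.0003), and Hadhb minus Hadh, the smallest of the 6, was 0.30 ± 0.11 (0.022). Hadha minus Hadhb was 0.10 ± 0.08 (0.21) and Hadhb minus Acaa2 −0.15 ± 0.07 (0.058), neither past the threshold. These pairs were compared after the values had been seen. Because the variable and the steady set were named from the same libraries, these p-values cannot test that split.

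Whether the diet effect of a mutant differed from that in WT was tested directly. For PparDA the difference was −0.57 ± 0.22 for Acaa2 (edgeR unadjusted p = 0.014, adjusted p = 0.71), −0.55 ± 0.25 for Hadha (adjusted p = 0.83) and −0.48 ± 0.26 for Hadhb (0.84). All 5 differences were negative, none passed, and this test called 0 of the 5872 genes (338 had an unadjusted p under 0.05). For PparD and PparA the differences ran from −0.43 ± 0.22 for Acaa2 in PparD to 0.12 ± 0.15 for Echs1 in PparD, none of them called, where 0.0511 and 0.153% of tested genes were. The smaller changes in PparDA were thus not shown to differ from those in WT. In the mutants the control library preceded the high-fat library in every run, so library order and diet cannot be told apart there, while in WT the order was turned in run 4.

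Genotype was also compared within each diet. On the control diet Acaa2 was higher in PparD and PparDA than in WT: the 4 WT libraries lay at 190.8 to 258.1 CPM, under the 364.5 to 400.5 CPM of PparD and the 333.4 to 380.0 CPM of PparDA. The log2 fold change was 0.80 ± 0.16 for PparD (edgeR adjusted p = 0.012) and 0.69 ± 0.16 for PparDA (adjusted p = 0.013), and Acaa2 was the 1 member called in each, where 0.204 and 1.87% of tested genes were. In PparA it was 0.36 ± 0.16 (adjusted p = 0.49), with ranges that overlapped, and 0.562% of tested genes were called. The PparD call was lost without library 1, 17 or 19 (0.051 to 0.093) and the PparDA call without library 17 (0.068), and within either pair of runs neither was called, at changes of 0.62 to 0.94. These comparisons and that of the diet in WT share the same 4 WT control libraries.

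Summed enterocyte markers were also higher in PparDA than in WT on the control diet. The 12 markers summed to 2190 to 2540 CPM against 1380 to 1580 CPM, and without Fabp1, a fatty acid binding protein that PPARs also regulate, to 1870 to 2290 against 1240 to 1430 CPM, apart in both. All 12 had a higher fitted value, with a median log2 fold change of 1.77 and 0 called by edgeR, while of the 8 goblet cell markers Zg16 and Clca1 were called higher (median 0.87 over the 8). In PparD, where Acaa2 was called as well, the enterocyte sums were 1260 to 1750 CPM and overlapped WT. In PparA, where Acaa2 was not called, they were 1260 to 5180 CPM and also overlapped WT. All 12 markers had a higher fitted value there too, with a median of 1.99 and 0 called. Averaged over Ppard and diet, the Ppara-null allele had 9 of the 12 enterocyte and 4 of the 8 goblet cell markers called higher. Of all tested genes, 7.54% were called in that comparison. The part of these cell types in the Acaa2 differences was not tested.

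Hadha and Hadhb were also higher than WT in PparD on the control diet by range, though not by the test. Hadha was apart from WT in PparD (0.62 ± 0.18, edgeR adjusted p = 0.26) and in PparDA (0.56 ± 0.18, adjusted p = 0.12), where 2.18 and 4.33% of tested genes lay apart and above WT. Hadhb was apart in PparD alone (0.43 ± 0.18, adjusted p = 0.51) and was at −0.01 ± 0.18 in PparA. Hadh was apart from WT in PparDA, at 217.2 to 256.5 CPM against 144.4 to 208.6 CPM (0.35 ± 0.14, adjusted p = 0.25), where Hadhb was at 0.22 ± 0.18 (0.65). In PparD and PparA Hadh overlapped WT, at 0.42 ± 0.14 (adjusted p = 0.34) and 0.31 ± 0.14 (0.51). Its fitted values on this diet were thus near that of Hadhb in PparD and above those of Hadhb in PparA and PparDA. Echs1 overlapped WT in all 3 mutants.

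On the high-fat diet none of the 5 genes was called against WT in PparD, PparA or PparDA, where 0.017, 0.749 and 1.57% of tested genes were. The differences that stood on the control diet were smaller here, with Acaa2 at 0.37 ± 0.15 in PparD, 0.10 ± 0.15 in PparA and 0.12 ± 0.15 in PparDA (edgeR adjusted p = 0.99, 0.88 and 0.81). In PparD Hadha at 172.3 to 199.2 CPM and Acaa2 at 470.6 to 525.9 CPM lay above all WT high-fat libraries, a separation shown by 1.38% of tested genes. Among the mutants, Hadhb was lower in PparDA than in PparD, at 168.4 to 249.6 against 292.0 to 368.1 CPM, ranges that 3.88% of genes had apart in this direction, and Hadha was apart there too, at 127.1 to 150.0 against 172.3 to 199.2 CPM. The Hadhb change of −0.59 ± 0.18 did not pass (adjusted p = 0.11, where 1.58% of genes were called), but it did in 4 of 12 other fits (adjusted p = 0.014 to 0.60 over them). Against PparA the 5 genes of PparDA differed by −0.29 to 0.13, with 0 called where 0.272% of genes were.

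**Figure D3:**
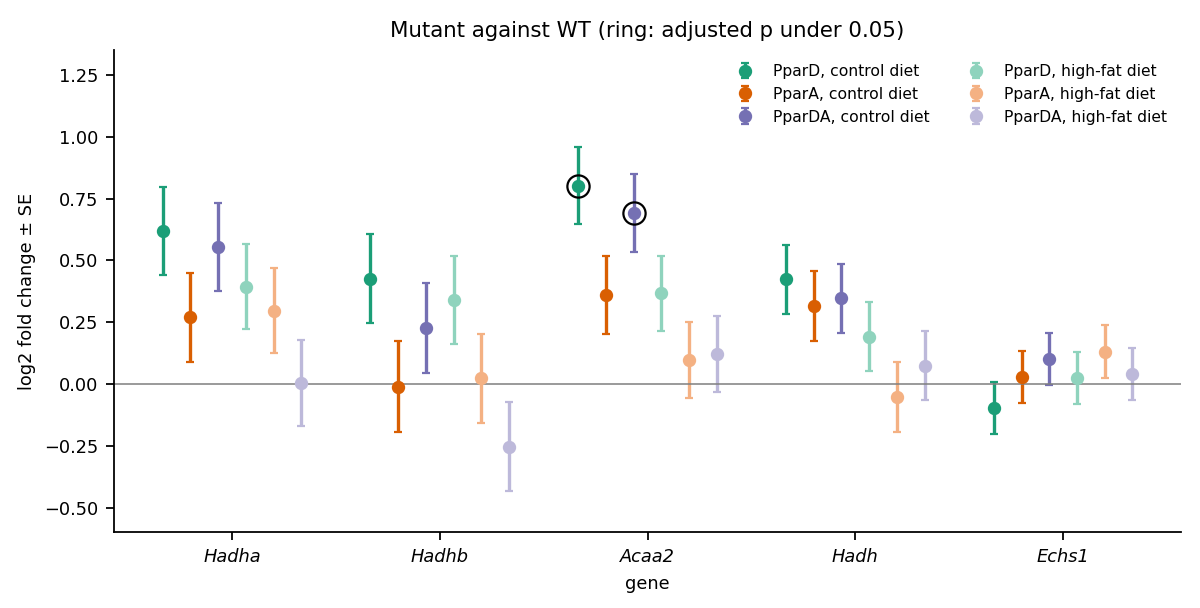
Log2 fold change of each gene in each mutant against WT, on the control diet (dark) and the high-fat diet (pale); bars give the SE and rings mark an adjusted p under 0.05. Acaa2 is ringed in PparD and PparDA on the control diet, at 0.80 and 0.69, and its high-fat values lie between 0.10 and 0.37.

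Averaged over the other allele and both diets, the Ppard-fl/fl allele went with a higher Acaa2. The log2 fold change was 0.38 ± 0.08 (edgeR adjusted p = 0.014), with 1 member called where 0.954% of tested genes were, and it was called without any single library but in neither pair of runs alone (0.42 and 0.35, adjusted p = 0.12 and 0.17). Hadha was at 0.25 ± 0.09 (0.17) and gained a call without library 5 (0.04). Hadh was at 0.19 ± 0.07 (edgeR adjusted p = 0.20) and Hadhb at 0.18 ± 0.09 (0.42). For Acaa2 this average held unequal fitted values. PparD against WT gave 0.80 ± 0.16 on the control diet and 0.37 ± 0.15 on the high-fat diet. PparDA against PparA gave 0.02 ± 0.15 on the high-fat diet (edgeR adjusted p = 0.98). On the control diet PparDA and PparA had means of 358 ± 21.2 and 285 ± 65.9 CPM (SD, n = 4). Whether these parts differ from each other was not tested. The Ppara-null allele, for which 7.54% of tested genes were called, gave no call among the 5. Hadhb had the largest change, −0.20 ± 0.09 (adjusted p = 0.22), which was called without library 22 (0.036) and within runs 2 and 4 (−0.34, 0.034).

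Within groups, Hadha, Hadhb and Acaa2 varied together from library to library. After the mean of each group was taken from the log2 CPM, Hadha and Hadhb had Pearson's r = 0.64 and Spearman's rho = 0.60 over 32 libraries (permutation test within groups, two-sided, p = 0.0022 and 0.002, adjusted over the 10 pairs of members 0.0076 and 0.017). Hadha and Acaa2 had r = 0.62 and rho = 0.57 (permutation p = 0.00088 and 0.0033, adjusted 0.0076 and 0.017), and Hadhb and Acaa2 r = 0.70 and rho = 0.46 (permutation p = 0.0023 and 0.03, adjusted 0.0076 and 0.10). Without the 2 libraries farthest from the median these r were 0.65, 0.57 and 0.52. The libraries left out were chosen by the log2 CPM of the first gene of the pair, before group means were taken off. Library 5 therefore stayed in every pair and library 22 in the pairs with Hadha, and the r without both of these libraries was not tested. The other 7 pairs, all those with Hadh or Echs1, had r from −0.20 to 0.27 and did not pass.

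Within runs 1 and 3 the r of these 3 pairs were 0.77, 0.67 and 0.84 and within runs 2 and 4 0.50, 0.84 and 0.39, in the same order, and none of the 10 pairs passed over the 16 libraries of a run pair. The PparA libraries 5 and 22 stood at the top of the 3 plots, high in all 3 genes against their groups. The 12 enterocyte markers summed to 1420 CPM in library 5 and 1770 CPM in library 22, against 1260 to 6340 CPM over the 8 PparA libraries. The 8 goblet cell markers summed to 4780 CPM in library 5, the highest of the 4 PparA control libraries (2460 to 4780 CPM), and to 5110 CPM in library 22, within the 3980 to 6270 CPM of its group. The 8 enteroendocrine markers summed to 130 CPM in library 5, where its group held 21.4 to 134 CPM, and to 72.3 CPM in library 22, where its group held 53.5 to 116 CPM. The part of these cell types in the pattern was not tested. In bulk RNA, fewer cells of a type and less RNA per cell cannot be told apart.

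**Figure D4:**
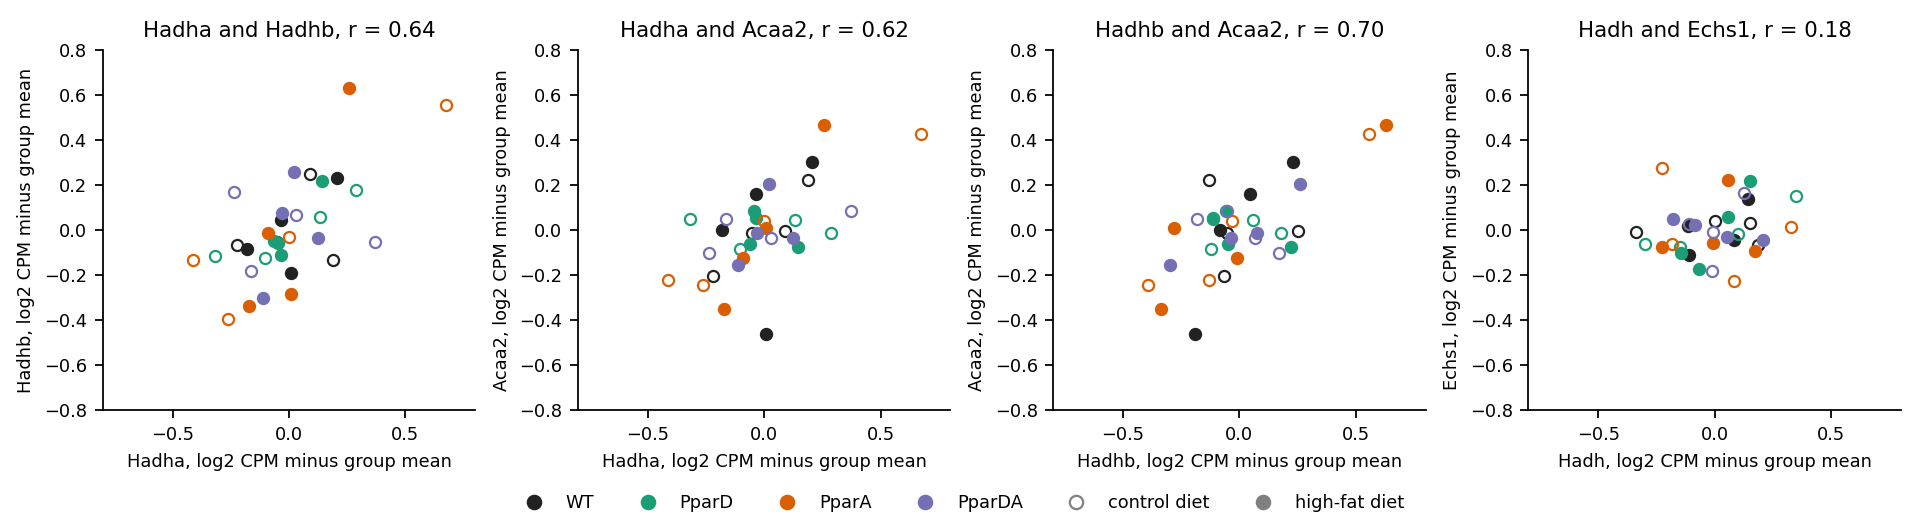
Log2 CPM of pairs of genes in each library after the mean of its group was subtracted; colour gives genotype and filling gives diet. Hadha, Hadhb and Acaa2 lie along rising diagonals (r = 0.62 to 0.70), with 2 PparA libraries at the upper right, whereas Hadh and Echs1 form a round cloud (r = 0.18).

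The genes most like each member over the 32 libraries were found by Pearson's r of log2 CPM among 5311 named genes that averaged 10 CPM or more; r is a description over libraries that share groups and runs. Those nearest to Hadha, Hadhb and Acaa2 were largely the same. Etfb, a subunit of the electron transfer flavoprotein that takes electrons from acyl-CoA dehydrogenases, had r = 0.78 with Hadha, 0.86 with Hadhb and 0.84 with Acaa2. Acadl, the long-chain acyl-CoA dehydrogenase, had 0.73 with Hadha and 0.78 with Acaa2, and Eci2, an enoyl-CoA isomerase for unsaturated chains, 0.71 with Hadha and 0.81 with Hadhb. Slc25a20, the carnitine-acylcarnitine carrier, and Cpt1a, which commits fatty acids to mitochondrial import, had 0.82 and 0.74 with Hadhb, and Angptl4, a lipoprotein lipase inhibitor, 0.71 with Hadha and 0.78 with Acaa2. Acot1, an acyl-CoA thioesterase whose reads may be shared with close paralogs, had 0.78 with Acaa2. Among the members, Acaa2 was nearer to Hadha than any of these 5311 genes (r = 0.85).

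Hadh and Echs1 had other neighbours. Those of Hadh were Hyi (r = 0.71), Pebp1 (0.70), Phyh, a peroxisomal enzyme of branched-chain fatty acid breakdown (0.69), Hint2, a mitochondrial nucleotide hydrolase (0.65), and Zfp973 (0.65). Those of Echs1 were the chemokine Ccl28 (0.70), the glutathione transferase Gstt1 (0.66), Cep70 (0.65), Tspan7 (0.64) and Sh3yl1 (0.63). None of these genes is on the list of mitochondrial β-oxidation genes, and Hadh and Echs1 had r = 0.04 with each other.

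The other genes of the pathway give the setting. A list of 28 mitochondrial β-oxidation genes without the members had 19 that were tested. Its calls by edgeR for the diet were 3 in WT and 0 in PparD, PparA and PparDA. Of all tested genes, 0.102, 0.0851, 0.136 and 0.0341% were called, in the same order. In WT 14 of the 19 were higher on the high-fat diet, with a median log2 fold change of 0.43 against −0.00 over all tested genes, beside 0.46 for the 5 members. Ech1, an auxiliary isomerase of unsaturated chains, was at 353 ± 13.8 and 563 ± 81.7 CPM (SD, n = 4; 0.67 ± 0.12, adjusted p = 0.015), Acadvl, the very-long-chain acyl-CoA dehydrogenase, at 74.7 ± 13.6 and 141 ± 31.0 CPM (0.91 ± 0.19, 0.036) and Eci2 at 73.4 ± 8.23 and 156 ± 27.2 CPM (1.09 ± 0.23, 0.04). In PparD and PparA 15 of the 19 were higher with medians of 0.08 and 0.18, and in PparDA 9 were higher with a median of −0.02. Tested directly, the diet effect of PparD, PparA or PparDA minus that of WT was called for 0 of the 19. The 3 calls in WT thus do not show a different diet response in the mutants.

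Averaged over genotypes, 4 of the 19 rose: Acadl (1.07 ± 0.19, edgeR adjusted p = 0.0031), Ech1 (0.33 ± 0.06, 0.0031), Etfb (0.30 ± 0.06, 0.013) and Eci2 (0.53 ± 0.11, 0.025). Of all tested genes, 0.324% were called there. Acadm, the medium-chain acyl-CoA dehydrogenase, was at 137 ± 21.9 and 130 ± 15.4 CPM in WT and did not pass in any diet comparison. On the high-fat diet PparDA had 3 of the 19 lower than WT, Acadvl (−1.21 ± 0.19, adjusted p = 0.00036), Eci2 (−0.90 ± 0.23, 0.035) and Ech1 (−0.44 ± 0.12, 0.048), whereas the 5 members lay between −0.25 and 0.12 there and none was called. In that comparison 1.57% of all tested genes were called. Of 21 genes of mitochondrial content, such as respiratory chain subunits, 0 were called for the diet in any genotype or on average, with medians of −0.05 to 0.06.

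**Figure D5:**
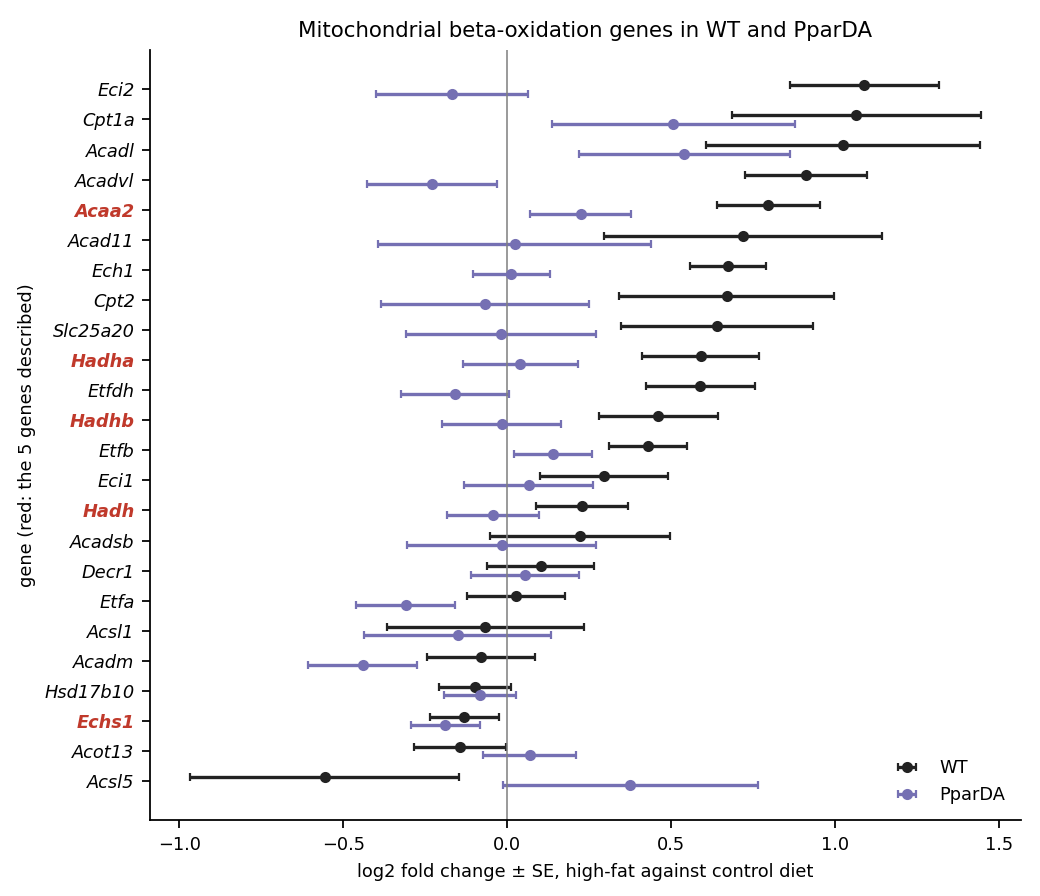
Log2 fold change between the high-fat and the control diet in WT (black) and PparDA (purple) for the 19 tested pathway genes and the 5 members (red names), ordered by the change in WT; bars give the SE. Most WT points lie to the right of 0 and most PparDA points near it; Acaa2, Hadha, Hadhb and Hadh lie in the upper and middle part and Echs1 near the bottom.

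Most related enzymes outside the spiral were not called. Of 18 hydratases, dehydrogenases and thiolases of peroxisomes, ketone bodies, branched chains and sterols, 13 were tested. Their median diet change in WT was 0.00, with 1 called, where 0.102% of all tested genes were. Hsd17b4, the peroxisomal multifunctional enzyme that joins a hydratase and a dehydrogenase, was called lower with the Ppara-null allele on average (−0.35 ± 0.08, edgeR adjusted p = 0.0075), where Hadha was at 0.03 ± 0.09. Scp2, which holds a peroxisomal thiolase, was not called for the diet in WT (−0.16 ± 0.17, adjusted p = 0.90).

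Summed markers of enterocytes, Paneth, goblet and enteroendocrine cells had higher ranges on the high-fat diet in WT, overlapping except for enterocytes, and their part in the results was not tested. The 12 enterocyte markers summed to 1380 to 1580 CPM on the control diet and 2010 to 3960 CPM on the high-fat diet. Without Fabp1 the sums overlapped at 1240 to 1430 and 1340 to 1800 CPM. By fitted value 7 of the 12 enterocyte markers were higher on the high-fat diet, with a median log2 fold change of 0.06. Fabp1 alone of the 12 was called by edgeR, where 0.102% of all tested genes were. The 10 Paneth cell markers summed to 4060 to 15600 and 7170 to 43000 CPM. The 8 goblet cell markers summed to 1630 to 4660 and 2950 to 6400 CPM, and the 8 enteroendocrine markers to 28.6 to 77.3 and 35.5 to 154 CPM. All 10 Paneth, all 8 goblet and all 4 tested enteroendocrine markers had a higher fitted value, with medians of 1.49, 0.61 and 0.95 and 0 called. The 11 stem cell markers summed to 7750 to 12600 and 10800 to 12800 CPM. Olfm4, with a mean of 10600 CPM over all libraries, made up most of this sum. By fitted value 3 of the 11 were higher on the high-fat diet in WT, with a median log2 fold change of −0.30 and 0 called by edgeR. Tuft cell markers stood at 72.7 to 203 and 76.6 to 193 CPM, stromal markers at 12.1 to 14.7 and 8.49 to 12.9 CPM and lymphocyte markers at 1.34 to 4.37 and 0 to 2.83 CPM, none of them with a higher range on the high-fat diet. In PparDA, where Hadha and Hadhb did not differ by diet beyond their spread, the enterocyte sums were 2190 to 2540 CPM on the control and 1970 to 4160 CPM on the high-fat diet.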

How the data were processed

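The authors deposited a table of estimated counts per gene and library, which they had rounded to whole numbers. They also deposited log2(CPM + 1) values of the same libraries, used here as an alternative. Tools in the submitters' processing notes are Salmon 1.1.0, R 4.0.2 and edgeR 3.30.2, with the build mm10, and the use of molecular identifiers is not given in the sources used here. Columns were tied to groups by name. Symbols and coordinates came from GENCODE (GRCm38).

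The filterByExpr function of edgeR 4.0.16 (minimum count 10, total 15) kept 5872 genes with 97.1 to 97.7% of counts. CPM used library totals and TMM factors (0.942 to 1.073). A quasi-likelihood model with 8 groups was fitted to 32 libraries, with 18 comparisons, two-sided tests and Benjamini-Hochberg adjustment within each (R 4.3.3). SE is the log2 fold change divided by the square root of F. Correlations used 100000 permutations. The method was run on simulated data, and the share of changes it finds at the sizes seen in the members is not reported here. Alternatives included DESeq2 1.42.0 and limma 3.58.1. Named genes were the members, called list genes (or the smallest p) and the 5 genes most like each member; some genes given by this rule are left unreported. Members and lists were chosen with earlier results of these data known.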

Additional observations from a re-analysis of the deposited data

Results flagged for a closer look

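Within 40 sets of 4 libraries (5 genes in 8 groups), Dixon's criterion at the 95% level marked 2 values, and about 2 would be marked by chance. Hadha in PparD on the high-fat diet stood at 199.2 CPM in library 4, against 172.3 to 175.8 CPM in the other 3 libraries. Echs1 in PparA on the high-fat diet stood at 329.3 CPM in library 22, against 264.1 to 270.5 CPM in the other 3, and the same library had the highest Hadha, Hadhb and Acaa2 of all 32.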

How the results depend on the processing

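Counts of the 5 genes called moved as follows. The diet in WT gave 1, and 0 with library totals only, limma on the deposited log2 values, runs 1 and 3 alone, runs 2 and 4 alone, or the 2 groups alone (0 to 1 without any 1 library). The averaged diet effect gave 2, and 3 with no filter or DESeq2, 1 with library totals only, 0 in runs 1 and 3 and 1 in runs 2 and 4 (1 to 3 without any 1 library). PparD and PparDA against WT on the control diet gave 1 each, and 0 in either pair of runs (0 to 1 without any 1 library). The averaged Ppard-fl/fl effect gave 1, and 0 in either pair of runs (1 to 2 without any 1 library). The diet in PparA and the averaged Ppara-null effect gave 0, and 0 to 1 without any 1 library, and the latter 1 in runs 2 and 4. PparDA against PparD on the high-fat diet gave 0, and 1 with library totals only, no filter, limma on the deposited values, or 2 groups alone. All calls came to 6, with 0 in runs 1 and 3 and 2 in runs 2 and 4, each of which holds fewer libraries. Pair correlations that passed came to 3, and 0 in either pair of runs. With the run as a factor (a block of 8 libraries) the calls again came to 6. Directions turned for Hadha in PparA against WT on the control diet without library 5 (−0.01; −0.01 to 0.40 without any 1 library) and for Hadhb in PparDA against WT on the high-fat diet in runs 1 and 3 (0.05); neither was called, and the causes were not tested. Of 2250 other fold changes, 123 that were smaller than their SE changed sign. No paired analysis was possible because the column names carry no replicate number of the labels; the run was used as a block in its place. Depth gave 50 to 368 counts per member and library, with a biological coefficient of variation of 10.1 to 17.5% per gene.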
